A study of Mus musculus with 7 samples.

Results

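Nasal cartilage cells of the mouse embryo at embryonic day 14.5 were picked out of droplet single-cell RNA sequencing of whole noses, cell by cell, by their raw UMIs (unique molecular identifiers, which tag each captured transcript once). A cell was taken when it held at least 5 UMIs of Col2a1, the gene of type II collagen, and at least 1 UMI each of at least 2 of Acan, Matn1, Matn4, Cnmd and Col9a1. These partner genes encode aggrecan, matrilins 1 and 4, chondromodulin and a chain of type IX collagen. In 6 libraries 31465 cells had 500 or more genes and no more than 10% of UMIs from mitochondrial genes. Of these, 3357 met the rule, and they are called members below, against 28108 other kept cells. The wild-type (WT) libraries came from CD1 IGS embryos, for which the labels name 5 noses in all without tying noses to libraries. The other 2 libraries, called Prokr2Cre 1 and Prokr2Cre 2, came from 1 nose of the same age on a B6;SJL background. It carried the allele Prokr2em1(cre)Cfe, in which the locus of prokineticin receptor 2 makes Cre recombinase, and the allele Gt(ROSA)26Sortm14(CAG-tdTomato)Hze, from which Cre switches on the red reporter tdTomato. Its cells gave a sorted and an unsorted library, and the labels do not say which is which. The names of the deposited files call Prokr2Cre 2 sorted, which was not used to group the samples. Being 1 nose, it entered no main test, and Prokr2Cre 1 joined the WT captures in 1 alternative of the cycling contrast.

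Hyaline cartilage of the nose forms the septum and the capsule around the nasal cavity, and much of it arises from cranial neural crest. Its cells, the chondrocytes, switch on Col2a1 and Acan under Sox9 with Sox5 and Sox6, and they secrete a matrix of fibrillar collagens filled with aggrecan, a core protein that carries chains of chondroitin sulfate. In growth cartilage such cells divide, stop dividing and enlarge (hypertrophy), and those steps are governed by Indian hedgehog, parathyroid hormone-related protein, bone morphogenetic proteins and fibroblast growth factors.

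WT libraries 3 and 4 shared 7386 cell barcodes, and 476 of their members carried the same barcode, against at most 34 shared barcodes for any other pair. They were treated as 1 capture (1 loading of cells into droplets), for which WT 4 was used, so that 4 WT captures remained. Library totals ran from 16773781 to 89800259 UMIs. Among the kept cells of WT 1, 2, 4 and 5 the members numbered 946 of 7790, 1443 of 10496, 516 of 7029 and 319 of 3250. These are 12.1%, 13.7%, 7.34% and 9.82% of the cells, or 10.8% ± 2.79 (SD, n = 4). Prokr2Cre 1 held 115 members among 1789 cells (6.43%), with a 95% exact binomial interval of 5.34 to 7.67%. Prokr2Cre 2 held 18 among 1111 (1.62%, interval 0.963 to 2.55%), and these intervals cover counting error only. Members were as deep as other cells or deeper: the median UMIs per cell were 11713.5 against 8749.5, 5564 against 5066, 7248.5 against 5740 and 11407 against 11347 in WT 1, 2, 4 and 5. A rule with a UMI minimum takes more cells where depth is high, so shares are compared with that in view. WT 1 stood apart from the other WT captures in many levels, as the values below show. Its file header names Cell Ranger 6.0.1, those of the other WT captures name 7.0.0 and those of the Prokr2Cre libraries 6.1.2, and whether intronic reads were counted is not given in the sources used here.

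The rule's own genes describe the cells without testing them. The median member held 70, 19, 20.5 and 27 Col2a1 UMIs in WT 1, 2, 4 and 5, and 17 and 7 in Prokr2Cre 1 and 2. All 5 partner genes were present in 1939 of the 3357 members. Members held 88.1 to 96.4% of all Col2a1 UMIs of the WT captures, and 86.1% and 45.6% of those of Prokr2Cre 1 and 2. At the edge of the rule, 197 members had exactly 5 Col2a1 UMIs and 228 cells were left out with 4 and at least 2 partners. A further 373 members had exactly 2 partner genes, while 159 cells with at least 5 Col2a1 UMIs had 1 partner and 89 had none. In Prokr2Cre 2 the members were few and sat close to that edge, with Col9a1 in 94.4% of them but Matn1 in 22.2% and Acan in 27.8%.

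Matrix genes that the rule did not use followed the same cells. Levels are CPM, the UMIs of a gene per 1000000 UMIs summed over all members, or all other cells, of a library. Because the cells were chosen on genes of the same counts, differences between members and other cells are given as descriptions with no test, and called higher or lower only when they were at least 2-fold in the same direction in all 4 WT captures. Among 5347 genes that reached 20 CPM on either side, 175 were higher in members by this measure (3.27%) and 152 lower (2.84%), with a median log2 ratio of -0.08. Without WT 1 the counts were 229 and 271, and with a 50 CPM filter 102 and 59. Hapln1, the link protein that holds aggrecan to hyaluronan, stood at 1345, 1197, 1077 and 1124 CPM in members of WT 1, 2, 4 and 5, and at 8.49 to 16.5 CPM in other cells. It reached 703 and 195 CPM in Prokr2Cre 1 and 2. Col11a1, a chain of type XI collagen, stood at 3145, 2458, 2459 and 2411 CPM against 158 to 187, and at 1910 and 747 CPM in the Prokr2Cre libraries. Col9a3, of the type IX collagen that coats those fibrils, stood at 2573, 2201, 1524 and 2243 CPM against at most 42.9. Member and other levels did not overlap for any of these genes, within WT captures or within the Prokr2Cre libraries.

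**Figure D1:**
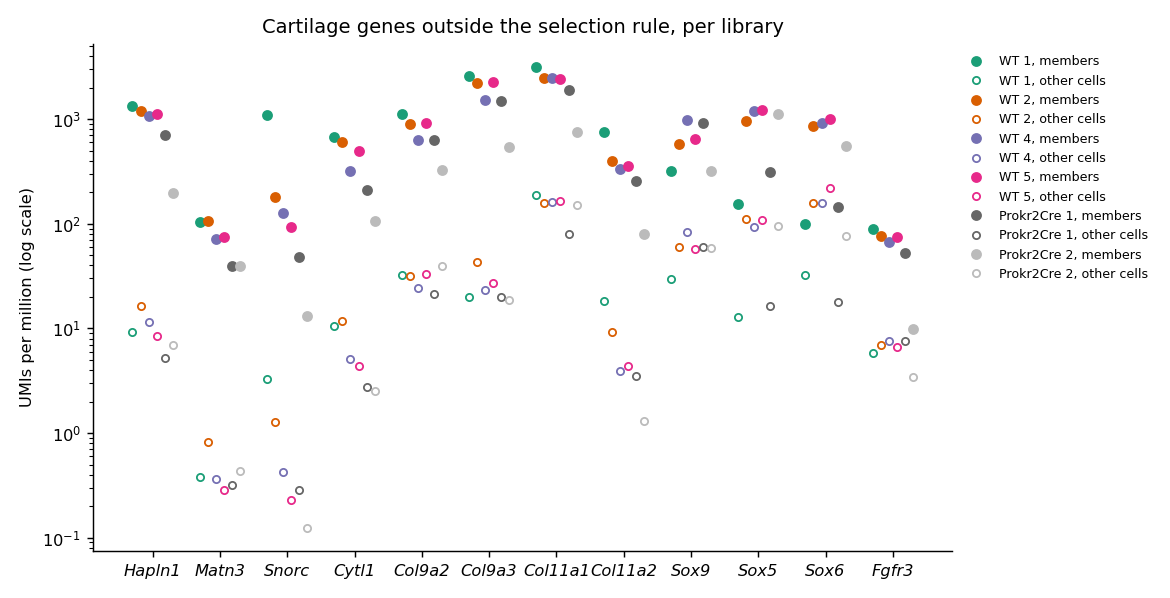
CPM (log scale) of 12 cartilage genes outside the selection rule, in members (filled points) and other kept cells (open points) of each library. Members lie above the other cells of the same library for every gene shown; Snorc is highest in WT 1 and Sox5 and Sox6 are lowest there among the WT captures.

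All 5 cartilage collagens of the list (Col9a2, Col9a3, Col11a1, Col11a2 and Col27a1) were higher in members, with a median log2 ratio of 4.86. Of 14 further matrix proteins that reached the 20 CPM filter, 13 were higher and none was lower, with a median of 5.15. Among all 5347 genes 3.27% were higher and 2.84% lower. Genes that pass that filter only through the members had to differ, so these counts are no support for the rule. Snorc, a small proteoglycan of the chondrocyte membrane, had ratios of 142 to 410 over the WT captures. Matn3, a matrilin, had ratios of 129 to 270, and Cytl1, a small secreted protein, 51.6 to 115. The calcium-binding protein S100b, also found in glia, had ratios of 16.3 to 35.1. Snorc differed between captures, with 1097 CPM in members of WT 1 and 180, 126 and 94.0 in WT 2, 4 and 5. Mia, a secreted cartilage protein, varied in another way, with 785, 2002, 187 and 1417 CPM in the same order.

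Genes that build the matrix are described under the same limit, since some passed the filter only through the members (Slc26a2 stood at 8.33 to 10.1 CPM in other cells). Chondroitin sulfate synthesis had 10 of 17 passing genes higher and none lower (median log2 ratio 1.39), where 3.27% of all 5347 genes were higher and 2.84% lower. Papss2, which makes the activated sulfate, had ratios of 11.4 to 17.3, and Slc26a2, the sulfate transporter, 10.9 to 12.1. Csgalnact1, which starts the chondroitin chain, stood at 99.3, 322, 286 and 320 CPM in members against 5.82 to 34.9 in others. Chst11, the chondroitin 4-O-sulfotransferase, stood at 61.7, 154, 182 and 168 CPM against 4.73 to 27.0. Both were lowest in WT 1, on either side. Collagen folding and secretion had 12 of 34 passing genes higher and 1 lower, Lox, a cross-linking oxidase (median 0.99). Of all genes 3.27% were higher and 2.84% lower, so the lower count is near its share. Those higher were mostly the prolyl and lysyl hydroxylases (P4ha1, P4ha2, P4ha3, Plod1, Plod2, Plod3, P3h1 and P3h3). Creb3l2, a transcription factor of secretory genes, had ratios of 3.33 to 3.68. Serpinh1, the collagen chaperone HSP47, stood at 1564, 1749, 905 and 1551 CPM against 486 to 785, ratios of 1.86 to 2.58 that were below 2-fold in WT 4 and WT 5. Of 16 glycolysis and hypoxia genes 1 was higher, a count near the 3.27% of all genes. It was Car12, a carbonic anhydrase, with ratios of 4.42 to 6.46.

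**Figure D2:**
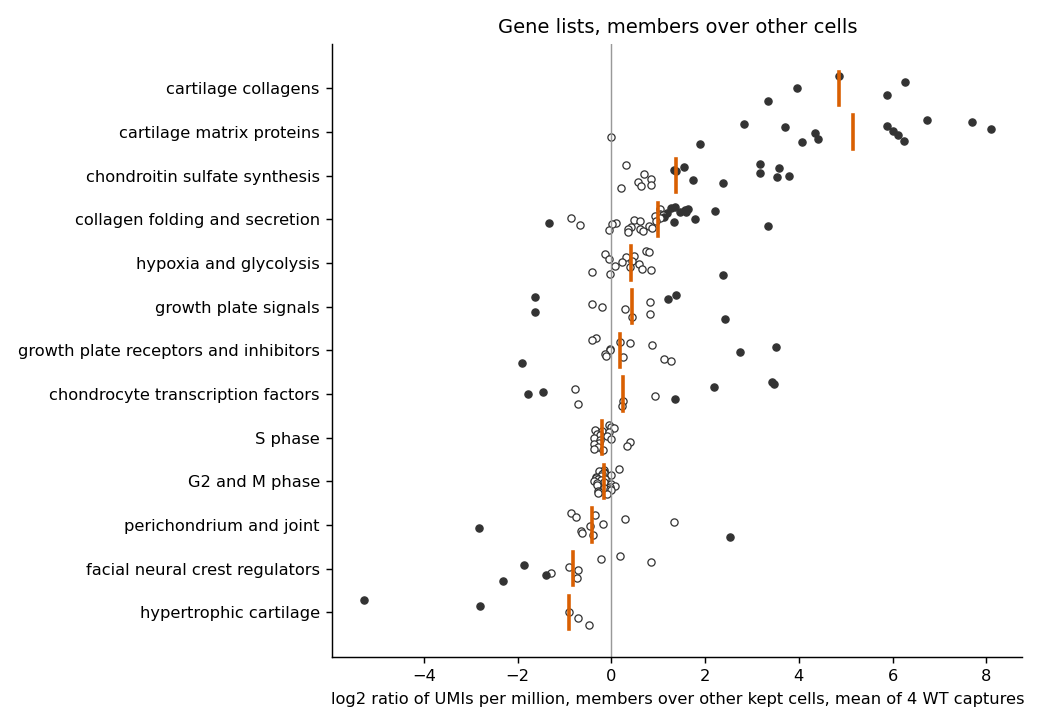
Mean log2 ratio of CPM in members over other kept cells across 4 WT captures, 1 point per gene that passed the 20 CPM filter, by gene list; filled points were at least 2-fold different in the same direction in all 4 captures and bars mark list medians. Cartilage collagens (median 4.86) and matrix proteins (5.15) lie far to the right, cell cycle lists lie near 0 and the hypertrophic list has the lowest median, -0.91.

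Among chondrocyte transcription factors, Sox9, Sox5, Sox6 and Foxc1 were higher and Barx1 and Pax9 lower, out of 11 that passed (median 0.26). This count and those of the lists that follow stand against 3.27% higher and 2.84% lower among all 5347 genes, under the limit of the filter given above. Sox9 stood at 316, 572, 980 and 643 CPM in members of WT 1, 2, 4 and 5 and at 29.6 to 82.5 in others, ratios of 9.48 to 11.9, and at 913 and 317 CPM in members of Prokr2Cre 1 and 2. Sox5 stood at 153, 967, 1194 and 1218 CPM against 12.9 to 110, and Sox6 at 98.5, 857, 926 and 1002 against 32.1 to 219. Sox5 and Sox6 were thus several-fold lower in WT 1 in members and in other cells alike, while their ratios stayed at 8.79 to 12.9 and 3.07 to 5.85. After each cell was thinned to 3000 UMIs, Sox9 was detected in 55.1 to 84.4% of WT members (82.3 to 92.1% before thinning). The share was 7.30 to 17.8% in osteoblast-lineage cells (Sp7 and Runx2 present) and 0 to 4.55% in endothelial cells (Pecam1 and Cdh5 present), which should lack it. Sox5 was found after thinning in 37.6 to 91.4% of WT members and 4.59 to 21.9% of osteoblast-lineage cells. For Sox6 these ranges overlapped, at 29.3 to 81.9% and 20.5 to 63.4%, so Sox6 was not particular to the members. Median depths were 5518 to 11705 UMIs in these members, 8178 to 15336 in the osteoblast lineage and 8749.5 to 18838 in endothelium. Barx1 and Pax9, regulators of facial mesenchyme and teeth, stood at 26.8 to 57.5 and 11.7 to 25.3 CPM in WT members against 60.2 to 161 and 43.1 to 67.5.

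The facial neural crest list had none of 10 passing genes higher and 3 lower (median -0.82), where 2.84% of all genes were lower. Twist1, a regulator of crest mesenchyme, stood at 64.0, 85.4, 95.3 and 114 CPM against 194 to 431. Gsc, a homeobox gene of facial mesenchyme, was close on both sides, at 49.9 to 57.2 CPM in members and 33.0 to 51.6 in others. Hox genes, which are silent in facial crest, were nearly absent: 12 of 15 had 0 UMIs in members of the 4 WT captures. Where a gene had none, 3 counts set the limit, 0.224, 0.318, 0.706 and 0.744 CPM in WT 1, 2, 4 and 5.

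Of signals, receptors and inhibitors of the growth plate, Bmp2, Bmp5 and Ccn2 were higher and Bmp4 and Igf1 lower among 11 passing signals (median 0.45), and Fgfr3 and Nog higher and Sfrp2 lower among 15 passing receptors and inhibitors (median 0.19). Fgfr3, the receptor that restrains chondrocyte growth, stood at 89.6, 76.5, 67.3 and 74.2 CPM in members of WT 1, 2, 4 and 5 against 5.79 to 7.50. Nog, the secreted BMP antagonist noggin, stood at 32.2, 71.3, 44.7 and 70.7 CPM against 5.38 to 9.27. Ccn2, a matrix-associated growth regulator, stood at 107, 162, 102 and 186 CPM against 18.1 to 35.2. Bmp4 ran the other way, at 11.7, 14.95, 16.9 and 27.0 CPM against 29.0 to 73.0. Fgfr3 and Nog passed the 20 CPM filter only through the members and so had to differ. Pth1r, the receptor for parathyroid hormone-related protein, did not separate the cells, with 55.4, 62.8, 48.5 and 75.4 CPM in members and 52.9 to 106 in others.

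The defining genes of hypertrophy had few UMIs in members. Col10a1, the type X collagen of hypertrophic cells, had 11, 4, 0 and 0 UMIs in members of WT 1, 2, 4 and 5, and Ihh, Indian hedgehog, had 38, 12, 1 and 1. After thinning, Col10a1 was found in 0 to 0.434% of WT members and Ihh in 0 to 1.08%, against 0% in endothelial cells and 1.97 to 4.71% for Ihh in the osteoblast lineage. Ibsp, bone sialoprotein, stood at 458 CPM in members of WT 1 and at 30.4, 1.65 and 0.25 in WT 2, 4 and 5, below the other cells of each capture (1434, 412, 149 and 147). Of 5 hypertrophic genes that passed the filter, Ibsp and Alpl, alkaline phosphatase, were lower and none was higher. The osteoblast list summed to 555 CPM in WT 1 members, with all 7 of its genes present, and to 10.4 to 52.1 CPM in WT 2, 4 and 5, with 1 to 3 genes at 0, among them Phospho1 in each. Perichondrial genes were mixed: of 12 that passed, Cthrc1 was higher (678, 1352, 710 and 1059 CPM against 90.4 to 237) and Dcn, decorin, lower (109, 25.2, 15.3 and 17.4 against 115 to 382).

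Members also carried RNA of other cell types, at levels that differed by capture. Cells holding at least 3 genes of the epithelium, endothelium, immune, neuron, muscle or glia list made up 71, 56, 17 and 10 of the members of WT 1, 2, 4 and 5, and 157 of 3357 in all. The epithelial list summed to 152, 130, 113 and 32.2 CPM in WT members against 368 to 817 in other cells, with none of its 7 genes at 0. The blood list summed to 5710 and 1463 CPM in WT 1 and 2 and to 32.7 and 36.2 in WT 4 and 5. In Prokr2Cre 2 the glial RNA lay mostly in cycling members: the glia list summed to 2157 CPM over the 18 members, to 5470 in its 4 cycling and 29.4 in its 13 non-cycling members. Of the 18 members, 5.56% held 3 or more genes of that list. The 17 Prokr2 UMIs of that library's members lay in 2 cells, against 7 or fewer cells with a UMI among members of any WT capture. Scrublet scores placed 17.8%, 14.2%, 7.95% and 5.02% of members of WT 1, 2, 4 and 5 among the barcodes taken as doublets, against 5.93%, 8.58%, 5.70% and 5.63% of other cells. Members were thus marked more often than other cells in WT 1, 2 and 4, by the most in WT 1, and not in WT 5. The part of such RNA in the differences between captures was not tested.

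Grouping the members by their own expression, with the rule genes and the cell cycle lists left out, showed how they varied among themselves. Clustering all 6 libraries together gave 9 groups that followed the libraries: 99.9% of members of WT 1 and Prokr2Cre 1 fell in 4 of them and 99.3% of the rest in the other 5. WT 2, 4 and 5 were therefore clustered together and WT 1 alone, a choice made after that result. Groups are described by their leading genes with no test, since the same counts made them. In WT 2, 4 and 5, group 4 (394 cells) had the highest levels of Hapln1 and Acan. Hapln1 stood there at 2659, 2494 and 2985 CPM in WT 2, 4 and 5, against 1000, 731 and 739 in the other members, and Acan at 1043, 975 and 1121 against 268 to 395. Nrk and Scrg1 were among the leading genes of that group. Group 1 (532 cells) had Rlbp1 and Tspan8 among its leading genes, and also Cthrc1, at 2004, 1207 and 1783 CPM against 623 to 1144. Group 4 thus exceeded the other members in Hapln1 and Acan in each of the 3 captures.

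Group 3 (419 cells) was led by Calca, the gene of calcitonin gene-related peptide, at 80.5, 111 and 61.2 CPM against 1.39 to 4.07. The perichondrial genes Col1a1 (1375, 1091 and 1380 CPM against 107 to 257) and Thbs2 (125, 107 and 103 against 6.34 to 16.3) stood high in the same cells. Group 5 (339 cells) was led by Erc2 and by Wnt5a, a signal of limb and face outgrowth, at 550, 614 and 481 CPM against 82.8 to 116. Tnc, tenascin C, stood at 240, 213 and 417 CPM there and Msx1, a homeobox gene of undifferentiated facial mesenchyme, at 209, 174 and 212 against 32.5 to 47.2. Group 2 (430 cells) held 77.0% cycling cells and was led by Ube2c and Birc5, and group 6 (91 cells) by Col8a1 and Mecom. Group 7 (40 cells, 67.5% cycling) was led by Epcam, an epithelial adhesion protein, at 570 against 6.61 CPM in WT 2, with the keratins Krt18, Krt17, Krt14 and Krt8, and had the highest median depth of the 8, 14666 UMIs. Group 8 (33 cells) was led by Plcb1 and Ccser1 and had the lowest, 3308 UMIs. Its leading genes were ranked in its 17 cells of WT 2 alone, since WT 4 and WT 5 held 8 each. Mitochondrial genes made up 4.57, 4.90 and 5.33% of its UMIs in WT 2, 4 and 5. In WT 1, group 1 (409 cells) was led by Il17d, Cytl1 and Chad, group 3 (174 cells) by Aspn, Htra1 and Ogn with Calca at 62.2 against 3.37 CPM, and group 4 (131 cells) was 85.5% cycling. Group 2 of WT 1 (214 cells, median 18568 UMIs, 50.9% cycling) carried Ibsp at 1264.5 CPM against 5.24 in the other members, with Ifitm5, a bone gene, and Krt18, an epithelial keratin. The Ibsp of WT 1 members thus lay largely in a group that was also the deepest of its 4 large groups. Group 5 of WT 1 (10 cells) was led by globin genes.

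**Figure D3:**
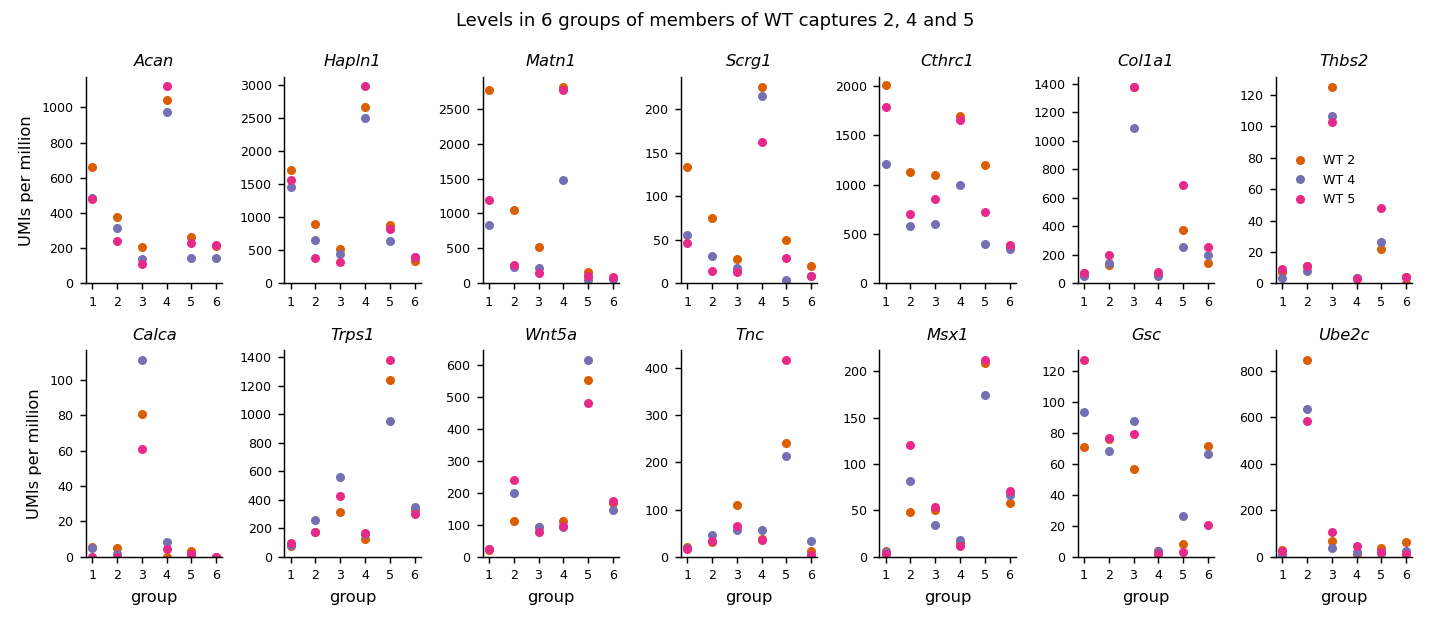
CPM of 14 genes in 6 groups of members from WT 2, WT 4 and WT 5, 1 point per capture. Acan and Hapln1 peak in group 4, Col1a1, Thbs2 and Calca in group 3, Wnt5a, Tnc and Msx1 in group 5 and Ube2c in group 2; in each case the 3 captures agree on the highest group.

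Cycling members were those with at least 2 UMIs of Top2a and Mki67, genes of chromosome condensation and proliferation, and non-cycling members had none. They numbered 241 and 629 in WT 1, 282 and 1034 in WT 2, 116 and 360 in WT 4 and 46 and 249 in WT 5, and members with exactly 1 UMI were left out. At 3000 UMIs per cell, 15.7%, 14.3%, 18.7% and 8.23% of members of WT 1, 2, 4 and 5 were cycling, against 11.8%, 14.3%, 19.6% and 10.3% of the other cells (shallower cells left out: 24, 205, 29 and 3 members and 308 to 1207 others). Before thinning the shares were 25.5%, 19.5%, 22.5% and 14.4% of members and 20.6%, 20.2%, 24.5% and 18.5% of others. The thinned difference was 0.273 ± 2.60 percentage points (SD, n = 4), positive in 2 of 4 captures, and the smallest two-sided p that the exact sign-flip permutation test can give with 4 captures is 1 in 8. It was negative in 6 of the alternatives run, so no direction can be given. None of the 19 S phase or 27 G2 and M phase genes that passed the 20 CPM filter was 2-fold different between members and others.

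Within the members, cycling cells carried proportionally less RNA of cartilage matrix genes than non-cycling cells of the same capture. Words such as fell, rose, lower and higher refer from here on to CPM, a share of all UMIs. Amounts per cell were not compared, and cycling members held more UMIs per cell. UMIs of the cycling and of the non-cycling members were summed per WT capture and compared with edgeR's quasi-likelihood test, with the capture as a block. The 6 rule genes, Top2a and Mki67 were not tested. Of 11189 genes tested, 3527 differed at an adjusted p (Benjamini-Hochberg) below 0.05 (31.5%). Of these, 1890 were higher in cycling members (16.9%) and 1637 lower (14.6%), and the median log2 fold change of all genes was -0.03. Nothing in the labels says that captures came from separate litters or days, so p-values measure the spread between these captures.

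All 5 cartilage collagens fell in cycling members, with a median log2 fold change of -0.72. Col11a1 stood at 2420, 1755, 1515 and 1646 CPM in cycling members of WT 1, 2, 4 and 5 and at 3707, 2817, 2972 and 2647 in non-cycling ones. It was lower in 4 of 4 captures, by a log2 fold change of -0.74 with an SE of 0.05 (edgeR adjusted p 1.73e-08). Errors after ± on log2 fold changes are such SEs. Col9a2 stood at 855, 618, 355 and 600 CPM against 1311, 1058, 794 and 1013, a change of -0.82 ± 0.07 (edgeR adjusted p 2.68e-07). Hapln1 stood at 1057, 889, 686 and 745 CPM against 1545, 1371, 1269 and 1235, a change of -0.69 ± 0.05 (edgeR adjusted p 8.99e-08). Within every capture the cycling cells were the lower of the pair for these 3 genes. Of 19 matrix proteins tested, Hapln1 among them, 14 fell and none rose (median -0.55), against 14.6% lower among all genes. Chad, the cell-binding chondroadherin, changed by -1.30, Comp, cartilage oligomeric matrix protein, by -1.43, Fmod, fibromodulin, by -1.29, and Cytl1 by -1.10. Matn3 (0.26, edgeR adjusted p 0.0732) and Snorc (-0.18, edgeR adjusted p 0.219) did not pass, and Snorc was lower in 3 of 4 captures. Matn3 stayed above 0 in all 16 alternatives with the block kept and was called higher in 5 of them.

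**Figure D4:**
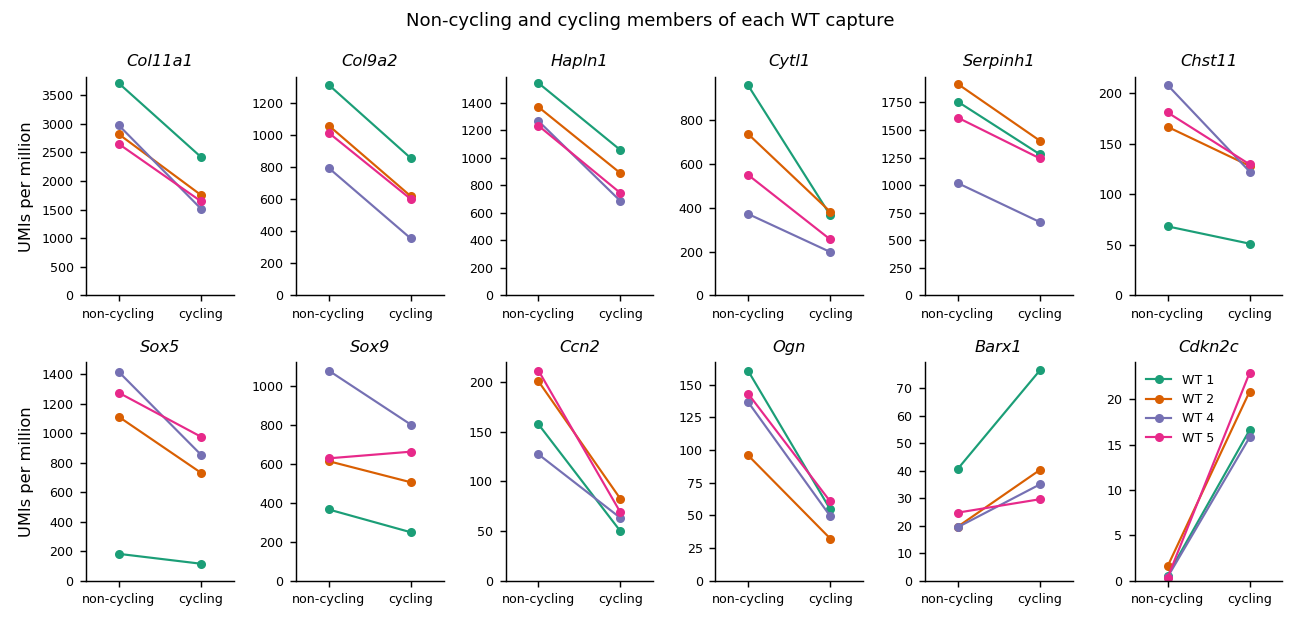
CPM of 12 genes in non-cycling and cycling members, 1 line per WT capture. Col11a1, Col9a2, Hapln1, Cytl1, Serpinh1, Chst11, Sox5, Ccn2 and Ogn are lower in cycling members of all 4 captures, Sox9 is lower in 3 of 4, and Barx1 and Cdkn2c are higher in all 4.

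Depth and selection moved with this contrast. Cycling members had more UMIs, with medians of 18635, 9161.5, 10438.5 and 14649.5 in WT 1, 2, 4 and 5 against 10079, 4964.5, 6510 and 11025 in non-cycling ones, and 5 Col2a1 UMIs are a smaller share of a deeper cell. With all cells thinned to 3000 UMIs before the rule and the cycling classes were applied, an alternative added after the data were seen, 844 of 6182 genes passed, 8.15% higher and 5.5% lower. Fewer cells and genes entered that fit (12 cycling members in WT 5 in place of 46), so its smaller counts below are read against those shares, and their cause was not tested. The 5 collagens were still lower there, all past the threshold, with a median of -0.41 in place of -0.72, and 7 of 14 matrix proteins were lower (median -0.37). With the rule applied first and the members thinned afterwards, 5 of 5 collagens and 7 of 14 matrix proteins were lower, where 9.57% of 7506 genes were higher and 8.05% lower. Doublet scores moved with the contrast too. Leaving out the marked cells took the cycling members from 241, 282, 116 and 46 to 183, 217, 98 and 38 and the non-cycling ones from 629, 1034, 360 and 249 to 541, 926, 342 and 243. All 5 collagens and 11 of 19 matrix proteins were lower without them, with 1 matrix protein higher. Of all 10846 genes tested there, 1494 were lower and 1832 higher. Among 88 named called genes Scrg1, Sox9, Dlx5, Fgfr3, Nog and Slc26a2 lost their calls. Without the capture as a block, 407 genes passed in all and no gene of the collagen, matrix, folding or chondroitin sulfate lists did, while the medians stayed at -0.67 for the collagens and -0.54 for the matrix proteins. The same pattern without a test was seen in Prokr2Cre 1, with 36 cycling and 60 non-cycling members: Col11a1 stood at 1370 against 2125 CPM, Hapln1 at 536 against 716 and Ogn at 43.3 against 144. Matn3 was higher in cycling members of that library, at 62.4 against 16.1 CPM. Of 90 named genes called in the WT captures, 84 had the same direction there, and Barx1 did not, with 5 UMIs in cycling and 12 in non-cycling members. These 90 include cell cycle genes, whose rise the choice of cells by Top2a and Mki67 fixes in part. They were named by size or role, and no share over all genes was taken, so the count is no test of the pattern.

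The share of UMIs from genes of the secretory apparatus fell as well. Of 36 genes of collagen folding and secretion tested, 29 fell and none rose (median -0.44), against 14.6% lower among all genes. Serpinh1 stood at 1279, 1402.5, 665 and 1242 CPM in cycling members against 1756, 1916, 1018 and 1611, a change of -0.47 ± 0.04 (edgeR adjusted p 9.85e-07). P4ha1, a prolyl 4-hydroxylase, changed by -0.49, P3h1, a prolyl 3-hydroxylase, by -0.73, and Hspa5, the endoplasmic reticulum chaperone BiP, by -0.37. With the rule applied after thinning, 10 of 31 tested were lower, against 5.5% of all genes there, with a median of -0.39. Of 27 genes of chondroitin sulfate synthesis, 13 fell and none rose (median -0.29), against the same 14.6%. Chsy3, a chondroitin synthase, changed by -1.02, Xylt1, which attaches the first sugar, by -0.58, Chst11 by -0.50, Papss2 by -0.37 and Slc26a2 by -0.30. Only 1 of 22 was lower with the rule applied after thinning (median -0.12) and 2 of 24 with members thinned afterwards, close to the shares of all genes there (5.5% and 8.05%). With the rule applied after thinning, Chst11 and Slc26a2 had values of 0.062 and 0.15.

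**Figure D5:**
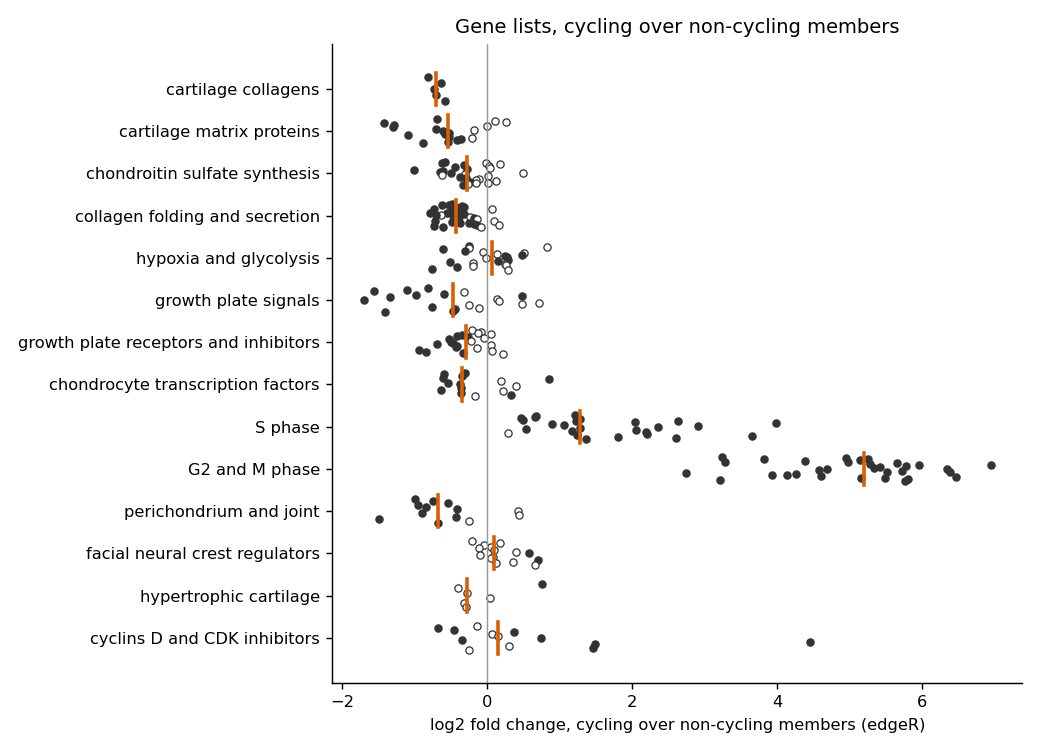
log2 fold change in cycling over non-cycling members (edgeR, 4 WT captures), 1 point per tested gene, by gene list; filled points passed an adjusted p of 0.05 and bars mark list medians. All 5 collagens lie left of 0, all 32 G2 and M phase genes right of 0, and Cdkn2c (4.45) stands out among the cyclins and inhibitors.

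Chondrocyte transcription factors fell in 9 of 15 tested and rose in 2 (median -0.35), against 14.6% of all genes lower and 16.9% higher. Sox5 stood at 116, 731, 853 and 975 CPM in cycling members against 182, 1110, 1413 and 1273, a change of -0.59 ± 0.06 (edgeR adjusted p 1.38e-06). Sox6 changed by -0.35, and Sox9 by -0.31 ± 0.08 (edgeR adjusted p 0.00844) with lower values in 3 of 4 captures. In the list 1 of 11 was lower when the rule was applied after thinning and 3 of 12 when members were thinned afterwards (median -0.15 in both), where 5.5% and 8.05% of all genes were lower. Sox9 passed in 10 of 16 alternatives with the block kept, over which its adjusted p ran from 4e-09 to 0.171. With the rule applied after thinning Sox5 missed at an edgeR adjusted p of 0.119. Sox6 had a log2 fold change of 0.029 there, turned in sign, and did not pass either. Trps1, a zinc finger repressor of chondrocyte maturation, changed by -0.61 and passed in all 16 alternatives. Barx1 rose, at 76.6, 40.3, 35.1 and 29.7 CPM against 40.7, 19.7, 19.5 and 24.8, a change of 0.85 ± 0.12 (edgeR adjusted p 9.77e-05), although members as a whole had less of it than other cells. Its call was lost when members were thinned after selection (0.40, edgeR adjusted p 0.306) and kept in the other 14 alternatives that had the block and tested it. Of 15 facial crest genes tested, Msx1 (0.58) and Dlx5 (0.70) rose and none fell, which is no larger a share higher than the 16.9% of all genes. Dlx5 passed in 8 of 14 alternatives, and with the rule applied after thinning 1 of 8 crest genes was higher, where 8.15% of all genes were.

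Growth signals fell in 11 of 19 tested and rose in 1, Bmp7 (0.47), a call kept in 9 of 16 alternatives. The counts of this paragraph stand against 14.6% of all genes lower and 16.9% higher, and against 5.5% lower with the rule applied after thinning and 8.05% with members thinned afterwards. In those alternatives 2 of 10 and 4 of 12 signals were lower. Ccn2 stood at 49.9, 82.4, 63.3 and 68.8 CPM in cycling members against 158, 201, 127 and 212, a change of -1.41 ± 0.10 (edgeR adjusted p 6.38e-08). Bmp2 changed by -1.11, and Igf2, insulin-like growth factor 2, by -0.44 but 0.0022 with the rule applied after thinning. Receptors and inhibitors fell in 12 of 22 and rose in none (median -0.30), but 4 of 19 were lower with the rule applied after thinning (median -0.11) and 4 of 19 with members thinned afterwards (-0.17). Igfbp5, a binding protein for insulin-like growth factors, changed by -0.94 and Fgfr2 by -0.43, and both passed in 16 of 16 alternatives. Fgfr3 (-0.26, edgeR adjusted p 0.0282) passed in 6 of 16. The hedgehog receptor and target Ptch1 had a value of -0.08 (edgeR adjusted p 0.586) and Pth1r of -0.21 (0.0960). Of 13 perichondrial genes, 10 fell and none rose (median -0.69). Ogn, the leucine-rich proteoglycan osteoglycin, stood at 54.7, 32.3, 49.5 and 60.7 CPM against 161, 95.9, 137 and 143, a change of -1.50 ± 0.08 (edgeR adjusted p 3.53e-09), while Col1a1 changed by -1.00 and Col12a1 by -0.95.

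Genes of the cell cycle itself gave the largest rises, as the choice of cells by Top2a and Mki67 fixes in part. All 32 G2 and M phase genes rose (median 5.20) and 25 of 26 S phase genes did (median 1.27), among them Ccnb1, cyclin B1, at 5.25 and Pcna, the polymerase clamp, at 1.21. Outside those lists, the 10 called genes that rose most in all 4 captures were Neil3, Depdc1a, Aspm, Hist1h2af, Kif2c, Cep55, Sgo2a, Pif1, Ska1 and Nek2, from 6.73 down to 5.98. Most of them act on the spindle, the chromosomes or the division furrow. The 10 that fell most were Tcp11l2, Cidea, Calca, Rab17, Sardh, Col24a1, Tert, Fgf18, Lepr and Traf1, from -2.35 to -1.67, each at or below 51.0 CPM in every capture. Calca, the leader of group 3, stood at 5.04, 5.22, 8.94 and 0 CPM in cycling members and at 15.6, 25.6, 42.3 and 24.8 in non-cycling ones. Among D-type cyclins and inhibitors of cyclin-dependent kinases, 5 of 13 rose and 3 fell, against 16.9% and 14.6% of all genes. Cdkn2c, the inhibitor p18, rose from 0.34 to 1.60 CPM in non-cycling members to 15.8 to 22.9 in cycling ones, a change of 4.45 ± 0.32 (edgeR adjusted p 7.41e-08), and Cdkn2d, its relative p19, by 1.49. Cdkn1c, the inhibitor p57, stood at 2627, 1956, 2232 and 2530 CPM in cycling members against 3260, 2499, 3332 and 2821, a change of -0.35 ± 0.05 (edgeR adjusted p 7.71e-05). Its call was lost with cycling set by 6 other genes (-0.20, edgeR adjusted p 0.0873) and with the rule applied after thinning (-0.21, edgeR adjusted p 0.177). Ccnd2, cyclin D2, changed by -0.68, Ccnd1 had a value of -0.14 (edgeR adjusted p 0.364) and Cdkn1a of 0.15 (0.479).

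Promoters of G2 and M phase genes are shown because all tested genes of this list rose. The windows are the 250 bases before the annotated start, from RefSeq on GRCm38.p6, written 5′ to 3′ on the gene's own strand. They were searched on both strands for CCAAT, the box bound by factor NF-Y, and for TTTGAA and TTTAAA, forms of the cell cycle homology region (CHR) bound by the DREAM and MuvB complexes. AACAAT, a form of the motif of SOX factors, was searched too. Of the 11189 genes tested, 8869 had a promoter in the table. The motifs, and the 4 promoters printed, were chosen with the gene results known. Capitals mark matches, which read ATTGG and TTCAAA where they lie on the other strand. Cdk1, the mitotic kinase (chr10:69352913-69353162, minus strand), Ube2c, an enzyme that passes ubiquitin to mitotic cyclins (chr2:164769679-164769928, plus strand), and Cdc20, an activator of the ubiquitin ligase it works with (chr4:118437344-118437593, minus strand), hold CCAAT and TTTGAA. Birc5, the survivin gene (chr11:117848987-117849236, plus strand), holds neither of these but has TTTAAA, which reads the same on both strands.
Cdk1: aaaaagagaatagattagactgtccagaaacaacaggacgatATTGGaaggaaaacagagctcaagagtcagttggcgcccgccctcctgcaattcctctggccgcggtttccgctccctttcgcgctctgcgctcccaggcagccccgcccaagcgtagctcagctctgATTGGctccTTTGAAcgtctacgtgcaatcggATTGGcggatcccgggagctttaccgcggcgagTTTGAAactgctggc
Ube2c: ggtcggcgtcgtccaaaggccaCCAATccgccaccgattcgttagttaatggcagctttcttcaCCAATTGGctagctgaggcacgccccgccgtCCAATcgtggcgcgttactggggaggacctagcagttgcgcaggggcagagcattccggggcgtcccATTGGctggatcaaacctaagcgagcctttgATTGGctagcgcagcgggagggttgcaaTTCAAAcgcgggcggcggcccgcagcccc
Cdc20: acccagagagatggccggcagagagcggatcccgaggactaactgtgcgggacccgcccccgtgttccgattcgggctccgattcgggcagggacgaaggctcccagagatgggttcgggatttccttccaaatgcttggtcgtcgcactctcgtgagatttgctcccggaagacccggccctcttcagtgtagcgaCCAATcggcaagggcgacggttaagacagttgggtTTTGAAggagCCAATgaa
Birc5: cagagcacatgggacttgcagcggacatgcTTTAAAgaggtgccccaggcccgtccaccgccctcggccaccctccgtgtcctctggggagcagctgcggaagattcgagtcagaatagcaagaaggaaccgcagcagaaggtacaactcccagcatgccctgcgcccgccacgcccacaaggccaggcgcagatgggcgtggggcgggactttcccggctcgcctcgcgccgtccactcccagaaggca

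All 4 genes rose: Cdk1 by 3.24, Ube2c by 5.14, Cdc20 by 4.13 and Birc5 by 4.39 on the log2 scale (edgeR adjusted p 9.48e-13, 1.56e-13, 1.90e-11 and 1.92e-13). Ube2c stood at 809, 863, 530 and 595 CPM in cycling members against 26.5, 25.8, 11.8 and 12.9, and Birc5 at 574, 576, 426 and 406 against 27.6, 32.1, 17.1 and 16.0. CCAAT lay in 77.8% of the 27 G2 and M phase promoters in the table and TTTGAA in 29.6%, always together with CCAAT. In the 22 S phase promoters the shares were 59.1% and 13.6%, so CCAAT was frequent in both cell cycle lists. The shares over all 27025 promoters of the table were 34.5% and 16.3%, and 37.4% and 10.1% over the 8869 promoters of tested genes. Either CHR form lay in 48.1% of the G2 and M phase promoters, against 25.5% of all promoters and 17.0% of those of tested genes. AACAAT lay in 8.70% of 23 promoters of cartilage collagens, matrix proteins and rule genes, against 9.65% of all promoters and 4.75% of those of tested genes. A match is a string of letters in this window and no evidence of binding, and the lack of CCAAT in Birc5 says only that these letters are not in these 250 bases.

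Genes of some other cell types moved with the cycling state. Of 7 epithelial genes tested 6 rose, and the list summed to 225, 243, 297 and 16.2 CPM in cycling members of WT 1, 2, 4 and 5 against 67.2, 67.5, 16.3 and 36.7 in non-cycling ones, with none of its genes at 0 in the members of any WT capture. DESeq2 called 2 of the 7. The mesenchyme list ran the other way, with 3 of 6 genes tested lower (Col3a1, Postn and Lum) and none higher, and summed to 877, 825, 704 and 881 CPM in cycling members of WT 1, 2, 4 and 5 against 1063, 1045, 928 and 1324. No endothelial or muscle gene had enough UMIs to be tested. In WT 1 these lists summed to 87.8 and 48.5 CPM in cycling members against 16.2 and 0.87 in non-cycling ones, and elsewhere to at most 14.4 CPM. Both immune and all 3 neuron genes tested were called higher, but none of 2 and none of 4 without WT 1, and the immune sum of WT 4 was lower in cycling members (3.44 against 17.9 CPM). The 4 blood genes tested were called lower, but none by DESeq2, and 4 of 5 were higher with cycling set by 6 other genes. The blood sum was 3997.5, 24.7, 32.3 and 41.8 CPM in cycling members of WT 1, 2, 4 and 5 against 5966, 1771, 33.8 and 33.3, which is not lower in WT 5. Epcam changed by 2.29 and Krt18 by 2.01, each higher in 3 of 4 captures. With members holding at least 3 genes of another type left out (an alternative added after the data were seen), Epcam came to 0.47 (edgeR adjusted p 0.375) and Krt18 to -0.85. All 5 collagens were lower without those cells too, past the threshold, with a median of -0.60, where 1597 of 10925 genes tested were lower. Fabp7, a glial fatty acid binding protein, stood at 219 against 56.0 CPM in WT 1 and at 6.74 to 16.3 against 4.88 to 9.41 in the others, a change of 1.59 that came to 0.73 without WT 1 (edgeR adjusted p 0.0808). The glia list summed to 253, 76.5, 55.7 and 54.0 CPM in cycling members of WT 1, 2, 4 and 5 against 92.7, 79.9, 80.5 and 81.5. The osteoblast list summed to 281, 60.1, 15.1 and 5.40 against 818, 9.59, 8.54 and 9.51. Neither list, nor the pericyte list, had 1 direction in all captures. Of 16 genes of dissociation and stress, 11 fell and 3 rose, where 14.6% of all genes fell and 16.9% rose, with Fos, an immediate early gene, at -0.43 and Hsp90aa1, a heat shock protein, at 0.80. Glycolysis genes were split, 5 higher and 6 lower of 22, beside those shares: Gapdh (0.48) and Pgk1 (0.24) rose while Hk2, hexokinase 2, fell (-0.61). With the rule applied after thinning none of 15 was higher and 1 lower, near the 5.5% of all genes lower there. The part of these genes in the contrast was not tested beyond those values.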

How the data were processed

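The authors deposited raw UMI counts per gene and cell barcode of 7 libraries (10x 3′ v3.1). The alignment was to mm10, per the submitters' processing notes, which name Cell Ranger 4 and Seurat 4.3.0, while the file headers name Cell Ranger 6.0.1, 6.1.2 and 7.0.0. The annotation and the counting of introns are not given in the sources used here. WT 3, which shares its barcodes with WT 4, was left out.

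The members, gene lists and tests were chosen with earlier results of these data known. Further choices came after seeing values here: the separate clustering of WT 1, the alternatives without members holding at least 3 genes of another type and with the rule applied after thinning, the motifs and printed promoters, and the doublet rate. Groups came from Leiden clustering (leidenalg 0.10.2, scanpy 1.11.5, 20 components, 20 neighbours, resolution 0.5). Scrublet's own threshold marked at most 0.333% of barcodes, so the top-scoring 0.8% per 1000 barcodes counted as doublets in an alternative, and the main values keep them. Named genes were list genes by size or known role and, for cycling, the 10 highest and 10 lowest called genes changed alike in all captures outside the S phase and G2/M lists. For members against others they were the 25 genes with the highest smallest ratio, and for groups the 10 with the highest ratio. Some genes that this rule takes are not reported here.

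Cycling and non-cycling sums were compared in edgeR 4.0.16 (R 4.3.3; TMM, filterByExpr, quasi-likelihood test) with the capture as block, and in DESeq2 1.42.0 as an alternative. The pairing comes from the shared capture, and correlations of the paired sums' deviations were 0.919, 0.606, 0.693 and 0.576. On simulated data (11011 genes) 37 of 67 genes changed 1.5-fold, 53 of 63 changed 2-fold and 60 of 60 changed 4-fold were recovered, and 17 of 167 calls were false. That false share is above the 0.05 at which the adjusted p threshold aims, so calls near the threshold are less certain than it states. Member sums held 4032434 to 13408030 UMIs in WT captures. Promoters came from RefSeq (GRCm38.p6). Other alternatives changed the filters, the thinning depth, the cycling classes and the libraries used.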

Additional observations from a re-analysis of the deposited data

Results flagged for a closer look

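Of 59 measures examined in members of the 4 WT captures, 15 had 1 capture whose gap to the nearest other made up a larger part of the whole range than Dixon's 95% critical value. Chance gives such a gap in about 1 of 20 groups of this size, and in 12 of the 15 the capture was WT 1, the one with its own Cell Ranger version.

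In WT 1 members, Snorc stood at 1097.2 CPM against 94.0 to 180.3 in the other captures, Acan at 892.6 against 410 to 472, Col11a2 at 750.45 against 333 to 397 and Col11a1 at 3145.1 against 2411 to 2459. Sorbs2, an adaptor protein of the cytoskeleton, was low there, at 265.36 CPM against 829.6 to 841.2. The genes of chondroitin sulfate synthesis summed to 1449.7 CPM against 2332 to 2379 and those of dissociation and stress to 6751.6 against 4744 to 4848. Genes of other cell types summed higher in WT 1: osteoblast genes to 554.59 CPM against 10.4 to 52.1, endothelial genes to 44.451 against 1.24 to 5.65, glial genes to 162.74 against 71.1 to 77.8, muscle genes to 25.955 against 0.471 to 1.06 and pericyte genes to 206.74 against 85.3 to 105.95. The capture and its processing cannot be told apart in these values.

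In WT 5 the median share of mitochondrial UMIs per member was 4.4111% against 2.43 to 2.71%, and the G2 and M phase genes summed to 1764.4 CPM against 3241 to 3514. In WT 2 the Hox genes summed to 0.95454 CPM against 0 to 0.0746.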

How the results depend on the processing

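The member share ran from 8.25 to 12.3% over all alternatives, against 10.8%. Counts of genes different from other cells were 86 higher and 58 lower at 3-fold and 102 and 59 with a 50 CPM filter. They ran from 177 to 229 higher and from 165 to 271 lower when 1 capture was left out, the extreme being without WT 1. The difference in cycling share was -0.46 percentage points without thinning, -0.74 with 1 UMI as the minimum, -0.50 with doublets removed, -0.75 with a stricter cell filter and -0.35 with WT 3 in place of WT 4, and it ran from -0.957 (without WT 1) to 1.04 when 1 capture was left out.

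In the cycling contrast 3527 genes were called by edgeR, 2121 by DESeq2, 1322 after thinning to 3000 UMIs and 844 with the rule applied after thinning, where fewer genes and cells entered, and 2454 to 3489 when 1 capture was left out. Cycling and non-cycling members came from the same capture, so the capture was the replicate block. Without that block and its pairing 407 genes were called, all among the 3527, and 27 of 90 named called genes passed. Apart from that alternative, 61 of the 90 kept direction and call in every alternative run for them. Values turned in sign with the rule applied after thinning for Sox6 (0.029), Pth1r (0.0045), Igf2 (0.0022), Slc26a2 (0.15), Chst11 (0.062), Cdkn1a (-0.23), Snorc (0.16), Ptch1 (0.16) and Ldha (-0.030). With members thinned after selection they did for Slc26a2 (0.087), Cdkn1a (-0.46), Ptch1 (0.16) and Ldha (-0.015), and without members holding genes of another type for Krt18 (-0.85), Cdkn1a (-0.29) and Ptch1 (0.014). Cdkn1a also came to -4.3e-04 in DESeq2, -0.069 with cycling set by 6 other genes, -0.012 with doublets removed and from -0.084 (without WT 1) to 0.25 when 1 capture was left out, and Snorc to 0.075 with the 6 other genes. Apart from Krt18, none of these passed the threshold in those alternatives, and the causes were not tested. Depth limits low genes most: in WT 5 a gene with no UMI in members may stand at up to 0.744 CPM.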
